A study of Mus musculus with 30 samples.

Results

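The enzymes examined were 9 genes listed by name, Car4, Alpl, Ggt5, Cyp1b1, Ephx1, Gstm1, Gsta4, Sult1a1 and Maoa, out of 21820 protein-coding genes in the files. RNA-seq was available from 14 libraries of adult male mouse brain cells. Endothelial cells (ECs, 2 libraries) and GFP-negative cells (2 libraries) had been sorted by FACS from dissociated brain of Tie2-GFP mice, in which the Tie2 promoter drives GFP in ECs, and cerebrum and cerebellum data of each replicate were combined in the files. WT cultures (6 libraries) were primary brain ECs selected with puromycin and grown for 8 days, from C57BL/6J mice for replicates 1 and 2 and from Ctnnb1flex3/+;Tie2-GFP mice for replicates 3 to 6. Beta-catenin stabilized cultures (4 libraries) came from Ctnnb1flex3/+;Pdgfb-CreER;Tie2-GFP mice, in which Cre in ECs removes exon 3 of Ctnnb1 after 4-hydroxytamoxifen (4HT). The Ctnnb1flex3/+ mice of both culture groups had received 4HT as pups. For RNA-seq, isolation was by method A (papain) in replicates 1 and 2 of each culture group and by method B (Dounce homogenization and collagenase) in the others, as the study's methods state. A figure legend of the study instead gives method A for all WT replicates but 3 and 4, so the method of WT replicates 5 and 6 is uncertain, and the methods text was followed. Each culture experiment pooled the brains of several mice and gave 2 replicate wells, so the replicates share a preparation and p values measure the spread between wells and experiments. Peaks of accessible chromatin (ATAC-seq) were available for 2 acutely isolated EC libraries, 6 WT cultures and 2 stabilized cultures, the stabilized ones both by method B.

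The BBB is metabolic as well as physical, because brain capillary ECs carry enzymes that alter molecules before they reach the parenchyma. Ectoenzymes on the EC surface hydrate, dephosphorylate or cleave substrates in the blood or the vessel wall. Inside the cell, phase I enzymes oxidize or hydrolyze drugs and amines, and phase II enzymes attach glutathione or sulfate to the products. The Wnt/beta-catenin pathway, which acts through TCF/LEF factors, is known to maintain BBB gene expression in brain ECs, and this is the question the stabilized cultures address.

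Sequences under 6 peak summits are shown first because accessibility at these sites is compared between acute isolation and culture further below. Each window spans 75 bases on either side of the summit and is read 5′ to 3′ from the plus strand of GRCm38. The first 3 lay in peaks that both acutely isolated EC libraries held and no culture held. The fourth lay in a peak of every culture and of neither acutely isolated library, and the last 2 in peaks of every library. Capitals mark matches on either strand to TGACNNNGC (the antioxidant response element core), GCGTG (the xenobiotic response element core) or CTTTGA (the TCF/LEF core), where N is any base.
Car4 upstream window, chr11:84956364-84956514: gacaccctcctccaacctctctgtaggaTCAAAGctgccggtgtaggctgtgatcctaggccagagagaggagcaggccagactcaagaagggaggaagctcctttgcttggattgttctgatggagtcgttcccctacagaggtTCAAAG
Alpl upstream window, chr4:137800312-137800462: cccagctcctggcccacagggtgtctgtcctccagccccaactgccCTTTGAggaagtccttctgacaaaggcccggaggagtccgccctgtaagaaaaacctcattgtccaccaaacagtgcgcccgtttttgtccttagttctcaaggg
Ggt5 intron window, chr10:75610568-75610718: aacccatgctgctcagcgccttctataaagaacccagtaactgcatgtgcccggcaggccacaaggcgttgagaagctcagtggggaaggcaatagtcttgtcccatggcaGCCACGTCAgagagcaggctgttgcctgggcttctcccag
Ephx1 intron window, chr1:181009881-181010031: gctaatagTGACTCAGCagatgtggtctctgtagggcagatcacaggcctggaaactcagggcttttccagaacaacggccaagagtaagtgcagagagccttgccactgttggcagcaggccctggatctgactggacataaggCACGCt
Cyp1b1 upstream window, chr17:79715680-79715830: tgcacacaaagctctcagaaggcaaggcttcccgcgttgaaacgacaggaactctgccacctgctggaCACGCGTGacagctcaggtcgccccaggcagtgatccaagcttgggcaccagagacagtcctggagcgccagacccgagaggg
Gstm1 start window, chr3:108017914-108018064: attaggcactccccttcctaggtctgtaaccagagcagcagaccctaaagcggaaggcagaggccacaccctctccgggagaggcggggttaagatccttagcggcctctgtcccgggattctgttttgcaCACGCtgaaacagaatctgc

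The Car4 upstream window held 2 matches to CTTTGA and the Alpl upstream window 1, and 10.2% of 22522 windows of the same length around peaks of both acutely isolated libraries near protein-coding genes held this motif. Windows at −4992 and 51583 bases from the Alpl start, also in peaks that no culture held, matched none of the motifs. CTTTGA also matched in a Gsta4 intron window of a peak in every culture. The Sult1a1 start window matched it too, in a peak of 5 WT and 2 stabilized cultures. The Ggt5 intron window held 1 match to TGACNNNGC, as did 8.62% of those windows. The culture peak in Ephx1 held 1 match to TGACNNNGC and 1 to GCGTG, but the windows counted here all lie around peaks of acutely isolated ECs. AP-1 motifs, which the study found enriched in regions gained in culture, were not searched over the windows. The Ephx1 match to TGACNNNGC reads TGACTCAGC, however, and so also holds the AP-1 letters TGACTCA. The Cyp1b1 window held 2 matches to GCGTG that overlap each other, the Gstm1 window held 1, and 26.4% of the windows held this motif. A match describes letters and does not show binding.

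Library depth ranged from 24284843 to 94686456 estimated counts. WT culture replicates 3 and 4, which were prepared at another facility and sequenced for 150 cycles, stood apart. Nuclear protein-coding genes took 94.2 to 94.3% of their deposited TPM, but 26.5 to 63.2% in the other 12 libraries, where 5 small RNAs took 24.8 to 53.7%. Levels below are therefore TPM rescaled to a common total over nuclear protein-coding genes in each library (rescaled TPM), and results without replicates 3 and 4 are given where they changed. Acutely isolated libraries were single reads of 75 cycles and cultures were paired reads, so read type and culture cannot be told apart. General EC markers (10 genes) summed to 6240 to 7741 rescaled TPM in acutely isolated ECs, 4243 to 11550 in WT cultures, 6153 to 10873 in stabilized cultures and 292 to 428 in GFP-negative cells. Pericyte markers (7 genes) summed to 1360 to 1668 in acutely isolated ECs and 1416 to 2072 in GFP-negative cells, but to 5.74 to 25.7 in WT and 14.5 to 30.8 in stabilized cultures. Astrocyte markers (6 genes) summed to 216 and 1448 rescaled TPM in the acutely isolated EC libraries, the higher of them replicate 1, where Gja1 alone was at 1440, and to at most 48.6 in cultures. Aqp4 was at 1.33 and 1.90 in the acutely isolated ECs. Erythrocyte markers (5 genes) summed to 16892 to 101403 in acutely isolated ECs and at most 2.45 in cultures, and oligodendrocyte markers (5 genes) to 93.3 to 303 against 14.4 to 39.0. Smooth muscle markers (5 genes) summed to 534 to 731 in acutely isolated ECs and 772 to 7605 in cultures, but did not move together. Tagln and Cnn1 were higher in every culture and the ranges of Acta2 and Des overlapped. Myh11 was lower, at 77.4 and 48.6 in acutely isolated ECs and at most 7.75 in cultures. The part of these cells in the results below was not tested. In bulk libraries fewer cells of a type and less RNA per cell cannot be told apart. Total Ctnnb1 did not differ detectably between stabilized and WT cultures (log2 0.04, SE 0.28, edgeR adjusted p = 0.961), but gene sums do not read out the deleted exon.

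As a group the 9 genes summed to 4755 and 4266 rescaled TPM in the acutely isolated EC libraries, and Car4 made up 72.8 and 71.5% of this. The sum was 847 and 1497 in GFP-negative cells, 207 to 971 in WT cultures and 378 to 769 in stabilized cultures. The leading member differed by preparation. It was Gstm1 in GFP-negative cells and in WT replicates 3 and 4, Sult1a1 in the method A cultures of both genotypes, and Ephx1 in the 36-cycle method B cultures of both genotypes. Among group means in acutely isolated ECs, Car4 was followed by Gstm1, Maoa, Ephx1, Alpl, Gsta4, Sult1a1, Ggt5 and Cyp1b1, and the ranges of Maoa and Ephx1, of Ephx1 and Alpl, and of Gsta4 and Sult1a1 overlapped. In WT cultures the order was Sult1a1, Ephx1, Gstm1, Maoa, Gsta4, Cyp1b1, Alpl, Car4 and Ggt5, and only Maoa and Gsta4, and Cyp1b1 and Alpl, were neighbors whose ranges did not overlap.

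**Figure D1:**
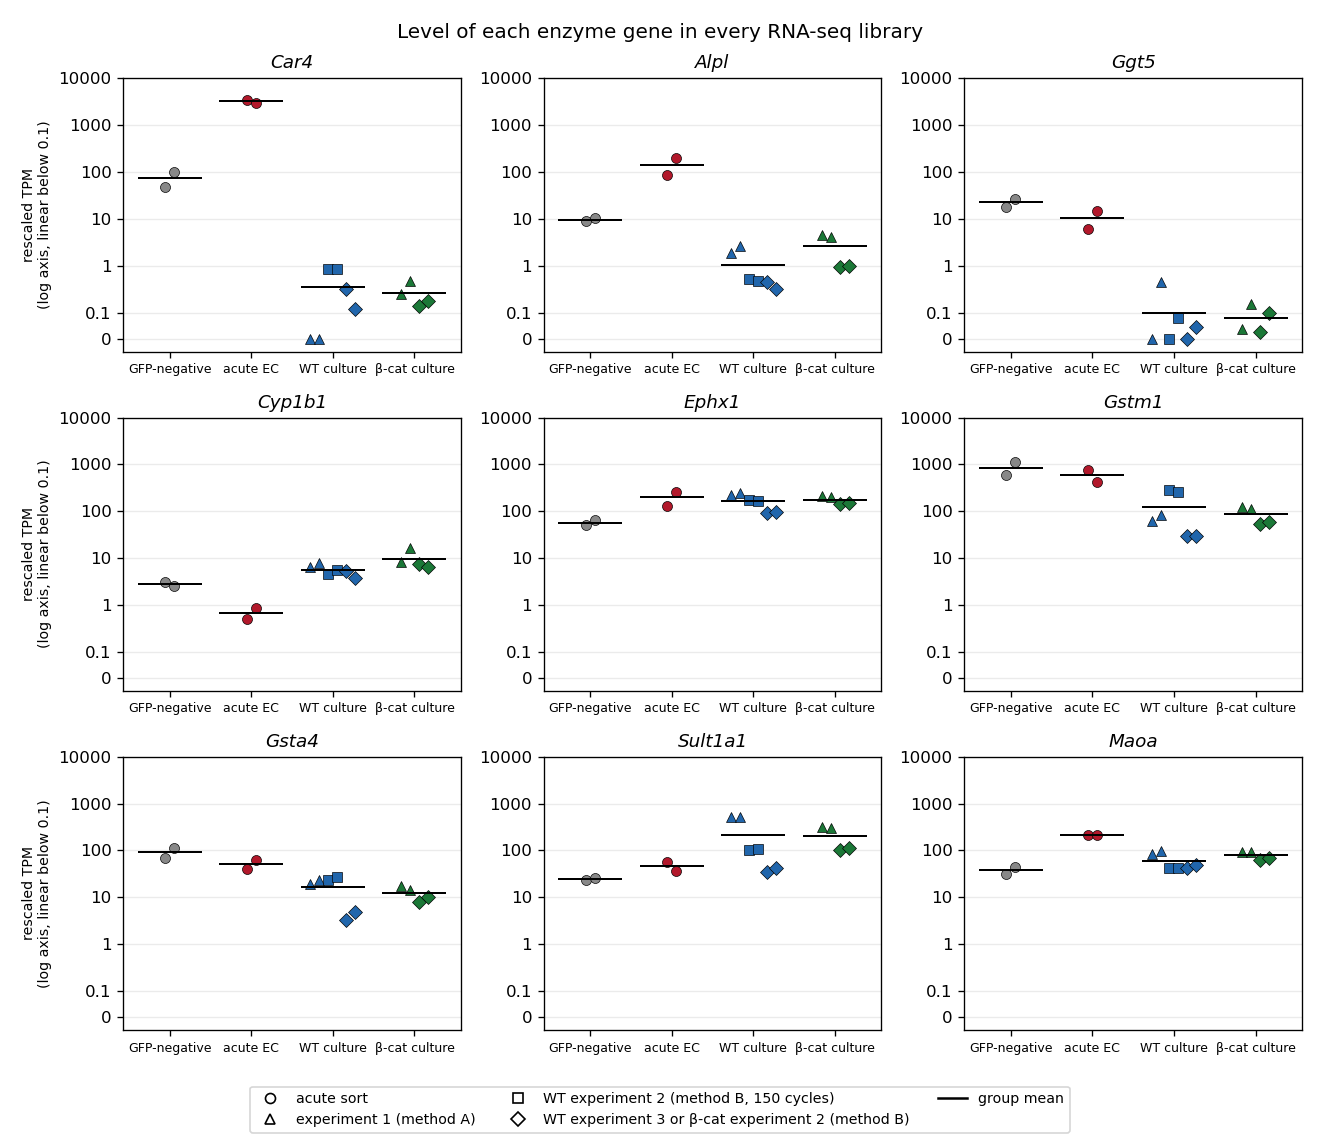
Rescaled TPM of the 9 enzyme genes in all 14 RNA-seq libraries (vertical axis, logarithmic above 0.1), by group, with symbols for the experiment and a line at the group mean. Car4 lies between 3048 and 3461 in acutely isolated ECs and below 1 in all 10 cultures, whereas Sult1a1 and Gstm1 separate by experiment within the cultures.

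Fold changes were fitted on counts with edgeR. A gene was called when its adjusted p was under 0.05, its change over 2-fold and its deposited TPM at least 5 in every library of the higher group. In acutely isolated ECs against GFP-negative cells, 4 of the 9 genes were called higher and 0 lower, where 8.3% of 15102 genes tested were called higher and 7.56% lower. In WT cultures against acutely isolated ECs, 0 were called higher and 3 lower, against 13.5% and 10.2% of 13786 genes. In stabilized cultures against acutely isolated ECs, 1 was called higher and 5 lower, against 15.1% and 11% of 13891 genes. By adjusted p alone, WT culture had 1 member higher and 4 lower (23.9% and 21.3% of genes) and stabilized culture 2 higher and 6 lower (28.9% and 27.8%). Ranges of rescaled TPM did not overlap in 5 members higher and 3 lower in ECs against GFP-negative cells (18.1% and 43.8% of genes), and in 1 higher and 6 lower in WT culture against ECs (28.3% and 25% of genes). The comparisons of both culture groups share the acutely isolated libraries and are not independent.

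**Figure D2:**
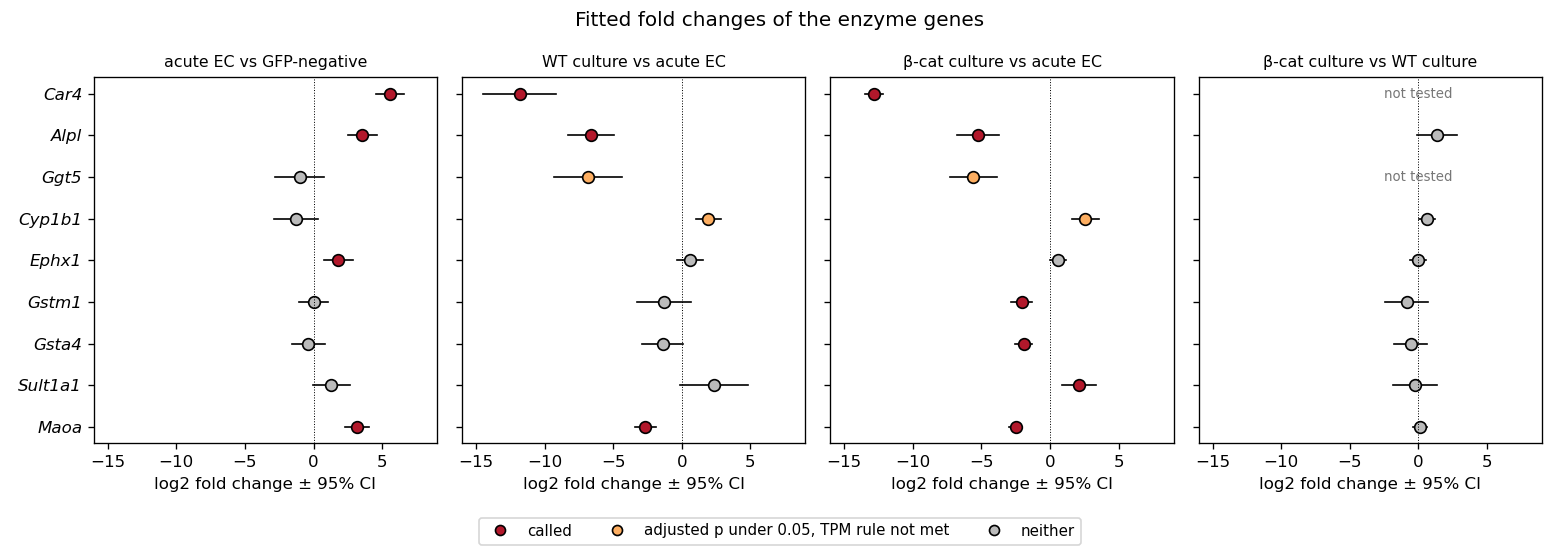
Fitted log2 fold changes (horizontal axes) of the 9 enzyme genes with 95% confidence intervals in 4 comparisons, colored by whether the gene was called, passed the adjusted p alone or neither. Car4, Alpl and Maoa lie right of 0 in acutely isolated ECs against GFP-negative cells and left of 0 in both cultures against acutely isolated ECs, and no gene was called between the culture groups.

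The surface enzymes Car4 and Alpl were EC-enriched in acutely isolated cells and fell in culture, and Ggt5 was near 0 in culture. Car4 (ENSMUSG00000000805.18, chr11:84957786-84966044, plus strand) encodes membrane-anchored carbonic anhydrase 4, which interconverts carbon dioxide and bicarbonate at the capillary surface. Its level was 3461 and 3048 rescaled TPM in acutely isolated ECs and 47.8 and 101 in GFP-negative cells. In WT cultures 1 to 6 it was 0, 0, 0.834, 0.835, 0.324 and 0.118, and in stabilized cultures 1 to 4 it was 0.243, 0.481, 0.135 and 0.180. No culture came near either sorted population, and the group ranges did not overlap in these comparisons. The counts behind the WT values were 0, 0, 23, 25, 5 and 5, against 68653 and 40201 in acutely isolated ECs. Car4 exceeded its GFP-negative level in acutely isolated ECs (log2 5.57, SE 0.41, edgeR adjusted p = 0.00163). It fell in WT culture (log2 −11.82, SE 1.19, edgeR adjusted p = 0.000194) and in stabilized culture (log2 −12.85, SE 0.27, edgeR adjusted p = 7.4e-06). The first of these values depends on WT replicates 1 and 2, which held no count. Within experiments the log2 difference was −10.52 in replicates 3 and 4 and −13.06 in replicates 5 and 6.

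Alpl (ENSMUSG00000028766.10, chr4:137741733-137796384, minus strand) encodes tissue-nonspecific alkaline phosphatase, an ectophosphatase long used as a stain for brain capillaries. Its level was 87.1 and 197 rescaled TPM in acutely isolated ECs and 8.96 and 10.2 in GFP-negative cells. WT cultures 1 to 6 held 1.84, 2.63, 0.525, 0.463, 0.459 and 0.320, and stabilized cultures 1 to 4 held 4.51, 4.15, 0.943 and 0.9995. In both culture groups replicates 1 and 2 lay above the other replicates, and all cultures lay below the sorted groups. Alpl was enriched in ECs (log2 3.57, SE 0.45, edgeR adjusted p = 0.00374), fell by 6.64 in WT culture (SE 0.75, edgeR adjusted p = 0.000309) and fell by 5.24 in stabilized culture (SE 0.65, edgeR adjusted p = 0.000961).

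Ggt5 (ENSMUSG00000006344.17, chr10:75589340-75617200, plus strand) encodes a gamma-glutamyltransferase that cleaves leukotriene C4 and other glutathione conjugates outside the cell. It did not pass the test between the sorted populations, with 6.02 and 14.5 against 18.3 and 27.2 rescaled TPM (log2 −1.01, 95% interval −2.79 to 0.77, edgeR adjusted p = 0.354). Counts in WT cultures were 0, 7, 0, 1, 0 and 4, and in stabilized cultures 4, 13, 3 and 8, against 212 and 472 in acutely isolated ECs. The highest culture level was 0.456 rescaled TPM in WT replicate 2. The adjusted p passed in both cultures against acutely isolated ECs (log2 −6.84, SE 1.11, edgeR adjusted p = 0.00154, and log2 −5.59, SE 0.71, edgeR adjusted p = 0.00105), but the deposited TPM did not reach 5 in both acutely isolated libraries and Ggt5 was not called. Of 10597 genes compared, those most like Ggt5 across the 14 libraries were Reg2 and Higd1b (Pearson r 0.987 each, on log2 of deposited TPM plus 1), but on rescaled TPM they were Fam81a (0.991) and Gm17571 (0.990). Higd1b is among the pericyte markers whose sums stand above. The part of pericyte RNA in the Ggt5 values was not tested.

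Of the phase I enzymes, Maoa fell in culture, Cyp1b1 was low everywhere and higher in culture by adjusted p, and Ephx1 did not change detectably. Maoa (ENSMUSG00000025037.6, chrX:16619698-16687818, plus strand) encodes monoamine oxidase A of the outer mitochondrial membrane, which deaminates serotonin and noradrenaline. Its level was 214 and 216 rescaled TPM in acutely isolated ECs and 31.7 and 43.4 in GFP-negative cells. WT cultures held 85.3, 95.1, 41.3, 42.0, 42.9 and 47.8, and stabilized cultures 92.1, 92.4, 64.1 and 69.3. Cultures thus lay below acutely isolated ECs in every library and WT cultures overlapped the range of GFP-negative cells. Maoa was enriched in ECs (log2 3.18, SE 0.37, edgeR adjusted p = 0.00314), fell by 2.65 in WT culture (SE 0.33, edgeR adjusted p = 0.000462) and fell by 2.505 in stabilized culture (SE 0.19, edgeR adjusted p = 0.000205). Its paralog Maob also fell in WT culture, from 41.4 ± 5.07 (SD, n = 2) to 5.01 ± 1.06 (SD, n = 6) rescaled TPM (log2 −2.59, SE 0.24, edgeR adjusted p = 0.000142).

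Cyp1b1 (ENSMUSG00000024087.4, chr17:79701537-79715061, minus strand) encodes a cytochrome P450 that oxidizes steroids, retinoids and polycyclic hydrocarbons and is known as a target of the aryl hydrocarbon receptor (AhR). It was the lowest member in both sorted groups, at 0.494 and 0.858 rescaled TPM in ECs and 3.11 and 2.49 in GFP-negative cells. All 10 cultures were higher than both sorted groups, with 3.70 to 7.92 (median 5.40) in WT and 8.38, 16.3, 7.53 and 6.56 in stabilized cultures. The difference from acutely isolated ECs passed the adjusted p in WT culture (log2 1.94, SE 0.40, edgeR adjusted p = 0.00494) and in stabilized culture (log2 2.56, SE 0.41, edgeR adjusted p = 0.00255), but the TPM threshold was not met and the gene was not called. With rescaled TPM in the call rule it was called in stabilized culture.

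Ephx1 (ENSMUSG00000038776.13, chr1:180976210-181020904, minus strand) encodes microsomal epoxide hydrolase, which opens reactive epoxides formed by P450 enzymes. Its level was 132 and 264 rescaled TPM in acutely isolated ECs and 50.6 and 64.1 in GFP-negative cells. WT cultures held 219, 245, 170, 167, 91.0 and 96.8, and stabilized cultures 210, 199, 140 and 153, a range that overlapped that of acutely isolated ECs. The EC level of Ephx1 passed the call rule against GFP-negative cells (log2 1.81, SE 0.43, edgeR adjusted p = 0.0258), a call that was lost without any 1 of 3 of the 4 libraries (edgeR adjusted p 0.0761 to 0.142). Neither culture group differed detectably from acutely isolated ECs (log2 0.58, 95% interval −0.36 to 1.52, edgeR adjusted p = 0.282, and log2 0.59, 95% interval 0.01 to 1.17, edgeR adjusted p = 0.0771).

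None of the phase II enzymes passed the test between acutely isolated ECs and GFP-negative cells, and their culture levels differed by experiment. Gstm1 (ENSMUSG00000058135.12, chr3:108012255-108017973, minus strand) encodes a cytosolic mu-class glutathione S-transferase. Its level was 757 and 428 rescaled TPM in acutely isolated ECs and 593 and 1112 in GFP-negative cells, and these ranges overlapped. WT cultures held 62.3, 83.5, 281, 256, 29.0 and 30.3, so that replicates 3 and 4 stood well above the other 4, and stabilized cultures held 125, 113, 54.7 and 58.6. All cultures were below all sorted libraries. On counts Gstm1 was not called lower in WT culture (log2 −1.28, SE 0.88, edgeR adjusted p = 0.257) but was without replicates 3 and 4 (log2 −2.70, SE 0.43, edgeR adjusted p = 0.00358). It fell by 2.07 in stabilized culture (SE 0.31, edgeR adjusted p = 0.00199), a call that was lost with all 14 libraries in 1 fit (edgeR adjusted p = 0.0532). Gstm1 shared 25.7% of its 36-base words with other genes, mostly Gstm2-ps1 and Gstm3, so its counts are uncertain in the shortest reads. To a lesser extent this holds for Sult1a1 (10.2%, mostly Gm6939), Maoa (6.05%) and Ephx1 (2.72%), while the remaining members shared 0%.

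Gsta4 (ENSMUSG00000032348.6, chr9:78182774-78209349, plus strand) encodes an alpha-class glutathione S-transferase with preference for lipid peroxidation products such as 4-hydroxynonenal. Its level was 40.2 and 61.8 rescaled TPM in acutely isolated ECs and 70.3 and 111 in GFP-negative cells. WT cultures held 19.3, 23.5, 23.8, 26.7, 3.35 and 4.95, with replicates 5 and 6 apart from the other 4, and stabilized cultures held 17.4, 14.1, 8.05 and 10.1. The cultures did not overlap the sorted libraries. On counts it did not pass in WT culture (log2 −1.38, SE 0.66, edgeR adjusted p = 0.113) and fell by 1.91 in stabilized culture (SE 0.26, edgeR adjusted p = 0.0013). Gstm1 and Gsta4, and Car4 and Alpl, had the highest correlations among pairs of members across the 14 libraries (Pearson r 0.935 and 0.936 on log2 of rescaled TPM plus 1, 0.944 and 0.930 on deposited TPM). These coefficients describe libraries that share preparations and depth.

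Sult1a1 (ENSMUSG00000030711.16, chr7:126672865-126676432, minus strand) encodes a phenol sulfotransferase. It was at 57.6 and 36.4 rescaled TPM in acutely isolated ECs and at 23.4 and 25.7 in GFP-negative cells (log2 1.30, SE 0.56, edgeR adjusted p = 0.138). WT cultures held 511, 513, 101, 106, 34.97 and 41.9, and stabilized cultures 311, 296, 102 and 114. Wells of 1 experiment were close to each other, while the 3 WT experiments did not overlap. The WT cultures overlapped acutely isolated ECs (log2 2.32, SE 1.10, edgeR adjusted p = 0.114), and the stabilized cultures were all higher (log2 2.103, SE 0.51, edgeR adjusted p = 0.0126). The second call was lost without acutely isolated EC replicate 2 (edgeR adjusted p = 0.0692). Vcam1 and Hrct1 had the patterns most like that of Sult1a1 on deposited TPM (Pearson r 0.986 and 0.978).

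Within experiments the 3 WT pairs gave different answers for the phase II enzymes and like ones for the surface enzymes and Maoa. Against the same acutely isolated libraries, the log2 change of Sult1a1 was 3.44, 1.64 and −0.02 in replicates 1 and 2, 3 and 4, and 5 and 6. That of Gstm1 was −2.27, −0.11 and −3.34, and that of Gsta4 −1.13, −0.77 and −3.22. Alpl was between −7.82 and −5.54, Maoa between −3.12 and −2.22, and Cyp1b1 between 1.61 and 2.27 in the 3 pairs. With 1 preparation per pair, isolation method, genotype, facility and read length cannot be told apart from the experiment. Replicates 3 to 6 share genotype and, by the methods text, isolation method, which is uncertain for replicates 5 and 6. In a fit of the 36-cycle cultures with genotype and method as terms, all 7 tested members were lower by method B than by method A (log2 −2.34 for Sult1a1 to −0.62 for Maoa, edgeR adjusted p 0.00019 to 0.0243), where 27.8% of 12922 genes were lower. Car4 and Ggt5 had too few counts to be tested.

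**Figure D3:**
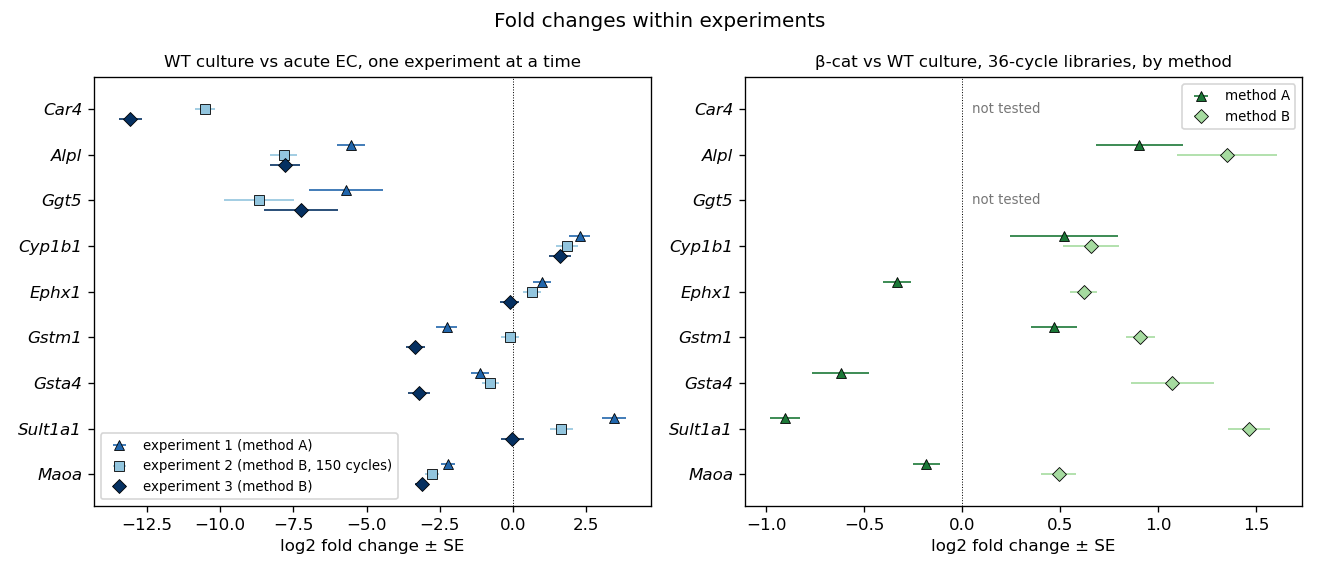
Log2 fold changes with standard errors of the enzyme genes, for WT cultures of each experiment against acutely isolated ECs (left) and for stabilized against WT cultures of 36 cycles within each isolation method (right). Sult1a1 runs from −0.02 to 3.44 over the WT experiments and from −0.90 (method A) to 1.46 (method B) for stabilization, and Car4 in experiment 1 is not drawn because both wells held no count.

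None of these enzymes passed the call rule between stabilized and WT cultures in the fit of all 10 libraries. The ranges of all 9 genes overlapped between stabilized and WT cultures, where 4.32% of 12959 genes did not overlap. With edgeR, 0 genes of the whole transcriptome were called, against 1421 (11%) at an unadjusted p under 0.05, and DESeq2 called 13 higher and 3 lower, none of them a member. The largest member difference was that of Alpl (log2 1.37, 95% interval −0.11 to 2.84, edgeR adjusted p = 0.468). This fit has no term for isolation method. With one, in 36-cycle cultures, 66 genes were called higher and 10 lower, 2278 passed the adjusted p, and of the members Alpl (log2 1.10, SE 0.19, edgeR adjusted p = 0.0128) and Gstm1 (log2 0.68, SE 0.12, edgeR adjusted p = 0.0119) passed it without being called. In the fit of all 10 libraries, without that term, Cyp1b1 was 0.59 (95% interval 0.01 to 1.17, edgeR adjusted p = 0.45). Maoa was 0.11 (−0.40 to 0.62, edgeR adjusted p = 0.869) and Ephx1 −0.03 (−0.60 to 0.55, edgeR adjusted p = 0.973) in it. For Gstm1, Gsta4 and Sult1a1 the intervals of the same fit without the term were −2.43 to 0.73, −1.75 to 0.59 and −1.85 to 1.34. Each includes changes of more than 2-fold.

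The comparison of genotypes was also made within isolation methods. The WT control was C57BL/6J by method A and Ctnnb1flex3/+;Tie2-GFP by method B, and the method of the latter (replicates 5 and 6) is uncertain as stated above, so isolation, strain and preparation cannot be told apart here. By method A, stabilized cultures had higher Alpl (log2 0.90, SE 0.22, edgeR adjusted p = 0.0136) and Gstm1 (0.47, SE 0.12, edgeR adjusted p = 0.0153), and lower Ephx1 (−0.33, SE 0.07, edgeR adjusted p = 0.00857), Gsta4 (−0.62, SE 0.15, edgeR adjusted p = 0.0113) and Sult1a1 (−0.90, SE 0.08, edgeR adjusted p = 0.000601). By method B at 36 cycles, all 7 tested members were higher in stabilized cultures, from 0.49 for Maoa (SE 0.09, edgeR adjusted p = 0.00757) to 1.46 for Sult1a1 (SE 0.11, edgeR adjusted p = 0.0005). Sult1a1 was the only one of them called. Genes past the adjusted p made up 56% of all tested by method A and 37% by method B. By method A 3760 of 12850 genes passed as higher and 3441 as lower. By method B at 36 cycles 2557 of 12836 genes passed as higher and 2195 as lower. Each side of these comparisons was 1 preparation with 2 wells, so genotype and preparation cannot be told apart. The difference between these 2 sets passed for 5 members in an interaction test (edgeR adjusted p 3.69e-05 to 0.0389), as it did for 49.9% of 13358 genes. Alpl passed as higher in stabilized cultures by both methods. Cyp1b1 passed by method B but not by method A (log2 0.52, SE 0.28, edgeR adjusted p = 0.154). Their difference between methods did not pass (log2 0.44, SE 0.34, edgeR adjusted p = 0.319, and 0.13, SE 0.37, edgeR adjusted p = 0.793).

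The transcript models that received the counts also differed between acutely isolated and cultured cells. In acutely isolated ECs, 53.8 to 55.5% of Car4 TPM went to a coding model of 732 bases and 36.6 to 42.0% to a model of 692 bases annotated as subject to nonsense-mediated decay. For Alpl, 36.7 to 43.8% went to the 604-base model Alpl-208 in acutely isolated ECs, and all of it to the 2522-base Alpl-201 in WT cultures. Gstm1-201, of 1289 bases, held 6.63 to 18.9% of Gstm1 TPM in acutely isolated ECs and 92.6 to 99.7% in WT cultures. Ephx1-201, of 1741 bases, held 1.79 to 4.15% against 72.7 to 98.5%. Ggt5-203, of 648 bases, held 85.7 to 88.1% in acutely isolated ECs. The mean effective length of a gene in WT cultures over that in acutely isolated ECs was 3.93 for Gstm1, 3.79 for Car4, 3.74 for Ephx1, 1.27 for Maoa and 0.95 for Cyp1b1, with a median of 1.90 over genes tested, and 93.3% of genes were longer in culture. These ratios move TPM and counts apart. With an offset for effective length, Ephx1 was −0.27 in WT culture (edgeR adjusted p = 0.627), Cyp1b1 3.04 (edgeR adjusted p = 0.000976), and Gstm1 was called lower (log2 −2.32, edgeR adjusted p = 0.0435). The part of read type in the choice of models was not tested.

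Other enzymes of the same pathways were counted from lists of genes by role. In WT culture against acutely isolated ECs, 2 of 29 tested ectoenzymes were called higher and 6 lower. Cpm, a membrane carboxypeptidase, was the highest of them (log2 5.13, SE 1.39, edgeR adjusted p = 0.0158). Of 20 cytochrome P450 and related genes, 2 were called higher, led by Cyp4b1 (log2 6.28, SE 1.32), and 1 lower, Cyp2d22 (−3.58, SE 0.68). Of 31 other phase I genes 1 was called higher, Akr1b3 (3.05, SE 0.45), and 7 lower, among which the flavin monooxygenase Fmo1 changed most (−4.85, SE 0.32). Of 18 glutathione transferases 4 were called higher, led by Gsto1 (4.91, SE 0.59), and 2 lower, led by Gstm7 (−3.86, SE 0.37). Among 13 other phase II genes 1 was called higher and 0 lower. Of 12 genes of glutathione synthesis and turnover 6 were called higher and 0 lower, with the largest change in Chac1 (5.91, SE 0.61), which degrades glutathione. Of 8 genes of the AhR pathway 1 was called, Arnt (−1.88, SE 0.55), the partner of AhR. Median log2 changes were 1.72 for the glutathione list, 1.39 for the transferases, 1.15 for other phase II, 1.24 for the AhR pathway, 0.54 for P450, −0.23 for other phase I and −0.71 for ectoenzymes, beside 0.10 over all genes tested and −1.38 over the 9 enzymes.

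In acutely isolated ECs against GFP-negative cells, 5 of 31 ectoenzymes were called higher, led by Dpp4 (log2 3.96, SE 0.54), and 2 lower, led by Enpp2 (−3.33, SE 0.87). For P450 and related genes the counts were 1 higher, Cyb5r3 (1.71, SE 0.35), and 2 lower, led by Cyp2j9 (−6.77, SE 0.52), of 23. Other phase I genes were called higher in 8 of 32 cases and lower in 0, with the largest difference in Fmo2 (6.50, SE 0.78). Of 17 glutathione transferases only Gstm7 was called (3.49, SE 0.53). Of 16 other phase II genes 2 were called lower, among them Hnmt, which inactivates histamine and was at 0 in both EC libraries against 36.0 ± 17.9 (SD, n = 2) rescaled TPM. The glutathione list had 1 of 12 called, Gpx1 (1.25, SE 0.34), and the AhR pathway 2 of 7, with Arnt higher (2.09, SE 0.55) and Arnt2 lower (−6.93, SE 0.92). All calls in these lists had an edgeR adjusted p under the threshold, and 0 genes of any list were called between stabilized and WT cultures.

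Chromatin at the start sites gave another readout for the members. A peak within 1 kb of an annotated start was present in both acutely isolated EC libraries for 8 of the 9 genes, as for 53.8% of 21646 genes. All 6 WT cultures had one for 3 genes, Cyp1b1, Gstm1 and Maoa (52.6% of genes), and both stabilized cultures for 5 (60.8%). WT replicates 1 and 2 held 50450 and 33152 peaks against 84560 to 98840 in replicates 3 to 6, and for Ephx1 and Sult1a1 the only culture without a start-site peak was WT replicate 2. Ggt5 had none in any library, as 32.3% of genes. The Car4 start had a peak of fold enrichment 5.49 and 3.39 over local background in acutely isolated ECs, 3.97 and 3.42 in WT replicates 3 and 4 and none in the other 6 cultures. Alpl had a start-site peak of 5.25 to 8.25 in 5 of 6 WT cultures, against 6.16 and 4.79 in acutely isolated ECs, while stabilized cultures had none in 1 library and 4.02 in the other. The Gstm1 start was the most enriched in all libraries but WT replicate 2 (9.11, against 10.2 for Maoa), at 19.0 and 19.3 in acutely isolated ECs and 9.11 to 15.9 in WT cultures, and Maoa was at 12.7 and 11.1 against 8.25 to 10.3. These were the 2 members whose fold enrichment in every WT culture lay below both acutely isolated libraries, where 10.4% of 14590 genes with a peak did so and 10.6% lay above. Fold enrichment was taken as deposited, so depth differences between libraries are not removed.

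**Figure D4:**
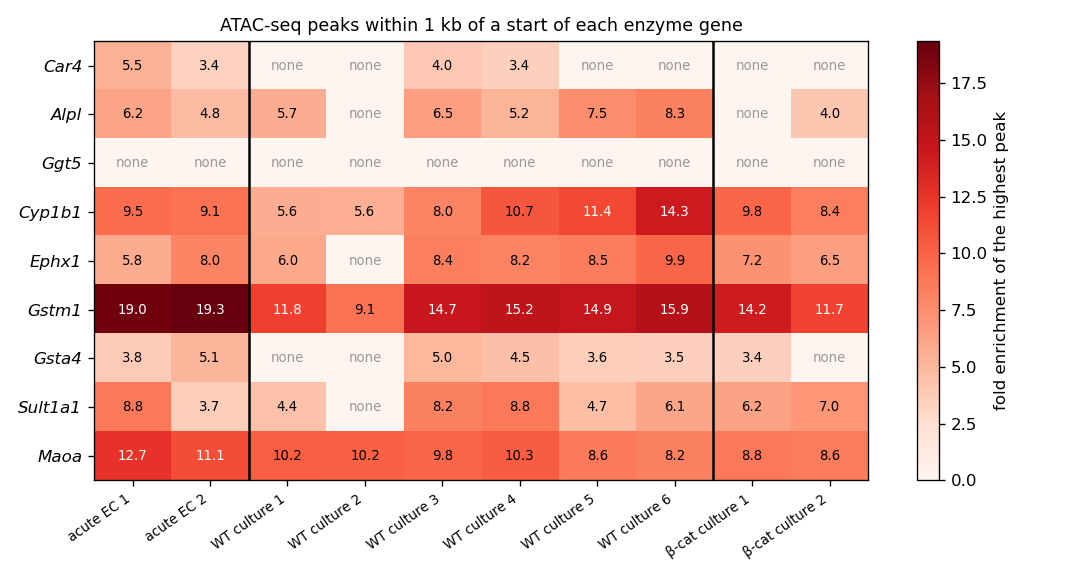
Fold enrichment of the highest ATAC-seq peak within 1 kb of a start of each enzyme gene (rows) in each of 10 libraries (columns, with lines between the groups), where none means no peak. Car4 has peaks in both acutely isolated libraries and in WT cultures 3 and 4, Gstm1 is highest in every library except WT culture 2, where Maoa is, and Ggt5 has none.

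Peaks shared by both acutely isolated libraries in a gene or within 10 kb of it, start sites included, were compared with the cultures. There were 23 such peaks at the 9 genes. Of these, 5 were overlapped by a peak in none of the 8 cultures, where 9% of 22522 such peaks near protein-coding genes were, and 7 were overlapped in every culture, against 65% of all. The 7 included the start-site peaks of Cyp1b1, Gstm1 and Maoa, which were also counted among the start sites above. The 5 that were in no culture lay at the surface enzymes. Summits and fold enrichments given for the shared peaks are those in acutely isolated replicate 1. Counted from the gene start, with negative values upstream, the summits were at −1347 bases for Car4 (fold enrichment 9.29), at −4003 and −4992 bases for Alpl (7.51 and 5.72), 51583 bases into Alpl in an intron (9.32) and 21303 bases into Ggt5 in an intron (5.28). The first Car4 peak, the nearer Alpl peak and the Ggt5 peak are the first 3 windows printed above. A stronger peak 11246 bases beyond the Car4 start (16.3), outside the gene, was in 4 of 6 WT and both stabilized cultures. At Ephx1 a peak with its summit in an intron 10948 bases into the gene was in all 8 cultures and in neither acutely isolated library. Its summit and fold enrichment (14.9) are those in WT replicate 5. The acutely isolated libraries held 37453 and 31844 peaks, and the cultures 33152 to 98840. At start sites, 1.64% of 21646 genes and 0 members had a peak in every culture and in neither acutely isolated library. The share over gene bodies was not counted. At Gsta4 the peak at −7231 bases has its summit in the exon of Rn7sk, so it cannot be assigned to Gsta4 from position alone. Whether any of these sites acts on the nearest gene was not tested.

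**Figure D5:**
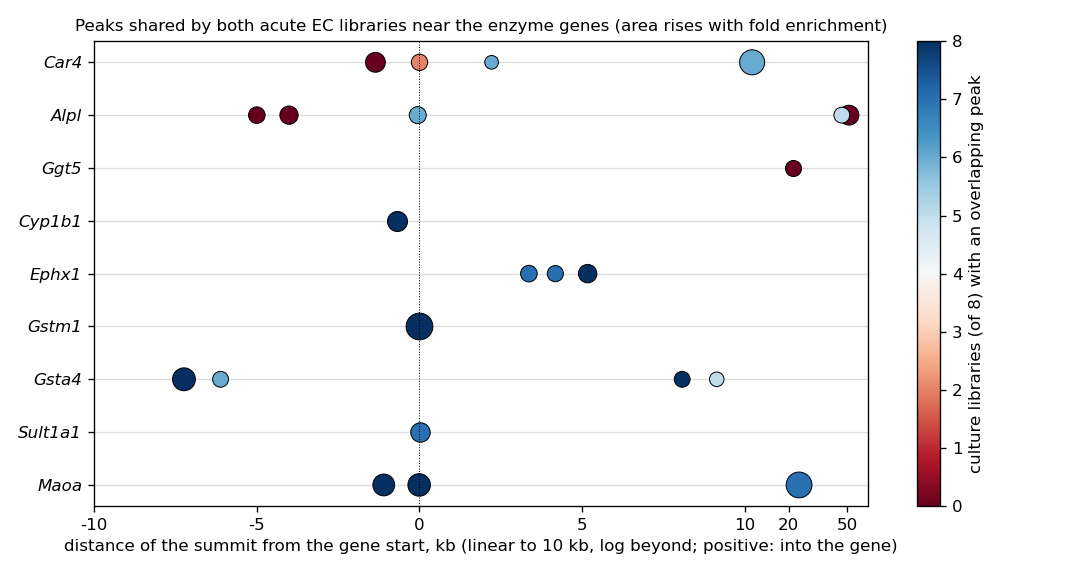
Peaks shared by both acutely isolated EC libraries near the enzyme genes, by distance of the summit from the gene start (kb, linear to 10 kb and logarithmic beyond, positive into the gene), with the color giving how many of the 8 cultures had an overlapping peak and the area rising with fold enrichment. Summits and fold enrichment are those of acutely isolated replicate 1. The 5 peaks at 0 cultures lie at Car4, Alpl and Ggt5, and the peaks at the starts of Gstm1 and Maoa were in all 8.

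RefSeq promoters (250 bases before to 50 after a start, GRCm38.p6) were at hand for 7 members, with 9 promoters, and not for Ggt5 and Gsta4. TGACNNNGC matched in both Alpl promoters (12.4% of 32544 promoters), GCGTG in both Gstm1 promoters and that of Cyp1b1 (32.6%), and CTTTGA in that of Sult1a1 (16%), on either strand. None of the 3 motifs was in the promoter windows of Car4, Ephx1 and Maoa.

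The genes most like the other members across the 14 libraries, by Pearson r on log2 of deposited TPM plus 1 over 10597 genes, were Slc22a8 (0.989) and Serpina1b (0.988) for Car4 and Golim4 (0.976) and Zap70 (0.974) for Alpl. Jag2 (0.977) was among those most like Maoa. For Ephx1 they were Ifnar2 (0.992) and Inka1 (0.988), and for Cyp1b1 Pxdn (0.967) and Fam102b (0.960). Rtl8c (0.967) and Mboat7 (0.966) were most like Gstm1, and Tcp11l2 (0.973) and Os9 (0.965) most like Gsta4. On rescaled TPM, Slc22a8, Fam102b, Ifnar2, Tcp11l2 and Vcam1 remained among the 2 genes most like their member, and the other genes named as most like a member did not. Slc22a8, an organic anion transporter of brain ECs, followed Car4 from a mean deposited TPM of 181 in acutely isolated ECs to 0.129 in WT and 0.0625 in stabilized cultures.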

How the data were processed

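The authors quantified RNA-seq reads with Salmon 0.14.0 on GENCODE M21 transcripts (GRCm38), using its models of sequence, GC and position bias, and deposited estimated counts, effective lengths and TPM per transcript, the TPM scaled to the same total in each library. For ATAC-seq the authors aligned with HISAT2 2.1.0, removed duplicates with Picard and called peaks per library with MACS2 2.1.2. The deposited peak lists hold a score, a fold enrichment (the ratio to local background at the summit), −log10 p and −log10 q. The read depth of the peak lists is unknown. Wells and replicates were not pooled, except that the acutely isolated libraries combine cerebrum and cerebellum.

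Here transcripts of 21820 protein-coding symbols were summed per symbol, estimated counts were rounded, and genes passing filterByExpr were fitted with edgeR 4.0.16 (R 4.3.3), TMM normalization, quasi-likelihood F tests and Benjamini-Hochberg adjustment over all genes tested. Standard errors are those of the fitted log2 difference. Calls also required a change over 2-fold and a deposited TPM of at least 5 in every library of the higher group. Each comparison was fitted on its own groups, and scripts were tested on simulated data. No adjusted p over the list of 9 was made. The study's own differential expression tool was not used, because edgeR fits the deposited counts. Peaks over fold enrichment 2 and −log10 q 2 were kept, and overlap was counted from 1 base. Alternatives were other normalizations, DESeq2 1.42.0, low-count filters, an offset for length, coding transcripts only, other sets of cultures, a replicate block and each library left out. Fits within single experiments, the rescaled TPM (also in the call rule) and the repeats of the interaction test were chosen after seeing the data. The genotype fit by method B at 36 cycles was not planned in advance either.

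The 9 enzymes and all lists were chosen with earlier results of these data known. The text names the 9 members, the called gene of each list with the largest change in each direction, the 2 genes most like each member (Pearson r, deposited TPM of at least 5 in any group mean), paralogs and markers. Some genes that this rule names are not reported here. Maob was chosen as a paralog by family name. The number of per-sample value columns without a sample was 0. The RNA-seq of 4 cerebrum samples was not analysed here.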

Additional observations from a re-analysis of the deposited data

Results flagged for a closer look

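The effect of stabilization differed between isolation methods for 5 of the 8 enzymes tested, by an interaction test in edgeR. The log2 difference, method B minus method A, was 2.36 for Sult1a1 (SE 0.14, edgeR adjusted p = 3.69e-05), 1.68 for Gsta4 (SE 0.27, edgeR adjusted p = 0.00132), 0.94 for Ephx1 (SE 0.11, edgeR adjusted p = 0.000271), 0.67 for Maoa (SE 0.12, edgeR adjusted p = 0.00224) and 0.43 for Gstm1 (SE 0.15, edgeR adjusted p = 0.0389). The Gstm1 value lost its call in 6 of 9 alternatives (edgeR adjusted p 0.0094 to 0.144 over them), and the other 4 kept theirs in all 9. The WT control was C57BL/6J by method A and Ctnnb1flex3/+;Tie2-GFP by method B, and the study's text disagrees on the method of the latter, so the 2 sets differ in more than isolation. Each combination was 1 experiment with 2 wells, and 49.9% of all genes passed the same test.

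In WT replicate 2, Ggt5 was at 0.456 rescaled TPM, far above the other 5 WT cultures, and the value rests on 7 counts. WT replicate 2 of the ATAC-seq had a fold enrichment of 0 (no peak) at the Alpl start, where the other 5 WT cultures had a peak. Of 26 groups of values examined for a sample apart from the rest, 2 held one, and chance gives about 1 in 20.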

How the results depend on the processing

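Over all alternatives, 165 counts of members stayed within 1.5 times of the reported count and 17 did not. The 165 include counts of 0 in both fits, as in most fits of stabilized against WT cultures. Counts over all genes are not among them. Of the single-gene values, 584 kept direction and side of the threshold, 25 passed and 13 lost it, and 34 changed sign. For WT culture against acutely isolated ECs, the count called higher was 1 with DESeq2 (Sult1a1), 2 with the replicate block (Ephx1 and Sult1a1), 1 by method A or experiment 1 alone and 1 in experiment 2 (Sult1a1 each time), and 1 by adjusted p alone (Cyp1b1). In the same order these fits had 1935 of 17674 genes higher, 1875 of 13786, 2036 of 13403, 2867 of 13514 and 3293 of 13786. The block rests here on WT replicates 1 and 2, which are experiment 1. The count called lower was 5 by method A, which is experiment 1, and 5 in experiment 3, Gstm1 and Gsta4 being added. Over all genes, 1776 of 13403 and 1546 of 13567 were called lower in these 2 fits. For stabilized against WT cultures 1 was called higher by method B at 36 cycles (Sult1a1), as were 139 of 12836 genes. For stabilized culture against acutely isolated ECs 0 were called higher with all 14 libraries in 1 fit (1947 of 15760 genes). The count was 2 with rescaled TPM (2512 of 13891 genes) or by adjusted p alone (4010 of 13891), Cyp1b1 and Sult1a1. Start-site peaks were in every acutely isolated library for 5 members at stricter thresholds (50.4% of genes). With a 2.5 kb window they were in every WT culture for 6 (55%), every stabilized culture for 8 (64.6%) and in no library for 0 (27.7%).

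Some directions turned, mostly between stabilized and WT cultures. Against acutely isolated ECs, Ephx1 was −0.27 (WT) and −0.29 (stabilized) with the length offset, and in experiment 3 Ephx1 was −0.11 and Sult1a1 −0.021. Between ECs and GFP-negative cells, Gstm1 ran from −0.56 to 0.48 with 1 library left out and was 0.0048 with the replicate block. Between stabilized and WT cultures, with 1 library left out, Ephx1 ran from −0.14 to 0.088 and Sult1a1 from −0.48 to 0.18. In that comparison Ephx1 was 0.029 with no low-count filter, 0.029 with all 14 libraries, 0.0060 with wells summed, 0.029 in 36-cycle cultures, 0.18 by method B, 0.13 with method as a covariate and 0.62 by method B at 36 cycles. Sult1a1 was 0.38, 0.26 and 1.46 in the last 3 of these. Gstm1 was 0.62 in 36-cycle cultures, 0.47 by method A, 0.68 with the covariate and 0.91 by method B at 36 cycles, and Gsta4 0.20 and 1.07 in the last 2. Maoa was −0.080 with the replicate block and −0.18 by method A. The interaction ran from −4.63 to 4.95 for Ggt5 and from −0.21 to 0.65 for Cyp1b1 with 1 library left out. The cause of these turns was not tested.

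Replicate numbers were not treated as pairs in the main fits (correlation of same-numbered deviations −0.03 to 0.47). The highest values were those of stabilized and WT replicates 1 and 2, both by method A. Between ECs and GFP-negative cells the correlation was 0.06. With 2 libraries per group the deviations mirror each other, so this value cannot show whether pairs exist. The replicate block matches libraries by number, and libraries without a partner do not enter the difference. For WT culture against acutely isolated ECs only WT replicates 1 and 2 enter. Between the culture groups WT replicates 5 and 6 do not, and stabilized replicates 3 and 4 (36 cycles) meet WT replicates 3 and 4 (150 cycles). With the replicate block, stabilized against WT cultures gave 143 genes higher and 44 lower over the transcriptome, against 0 and 0. The same counts were 13 and 3 with DESeq2, 691 and 118 by method A, 139 and 37 by method B at 36 cycles, 66 and 10 with the covariate and 1 and 0 by method B. For WT culture against acutely isolated ECs (1866 higher, 1410 lower) wells summed gave 1277 and 835, and experiment 2 gave 2867 higher. For ECs against GFP-negative cells (1253 and 1142) the length offset gave 677 and 895, TPM rescaled 1394 and 1819, library size alone 930 and 1420, and leaving out GFP-negative replicate 1 or 2 gave 669 or 662 higher. By adjusted p alone the counts were 3293 and 2938, 1499 and 2978, and, for stabilized culture against acutely isolated ECs, 4010 and 3868. Library size alone moved the median of all genes from 0.10 to 0.30 in WT culture and from −0.06 to −0.44 in ECs against GFP-negative cells. With 1 acutely isolated library left, its spread is assumed to be that of the cultures. Depth limits Car4 and Ggt5 in culture, whose counts were at most 25.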
